A study of Mus musculus with 2 samples.

Results

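EGR1 ChIP-seq peaks at the start sites of noncoding RNAs were taken from the merged EGR1 peak list of mouse frontal cortex. A peak belonged to the set when its centre lay within 500 bp of a transcription start site (TSS) of a gene that GENCODE release M21 lists as lincRNA, antisense, processed_transcript, sense_intronic, bidirectional_promoter_lncRNA or miRNA, and more than 2 kb from every protein-coding TSS. Of 12014 peaks, 797 lay within 500 bp of such a noncoding TSS. A protein-coding TSS lay within 2 kb of 622 of these, and the other 175 peaks (1.46% of the list) form the set. All 175 lie on assembled chromosomes and none was removed for a low value. The mice were male F1 hybrids at 6 weeks, strain C57BL6N/129SvEv, with frontal cortices of 4 to 5 mice pooled for each of 2 ChIP experiments. The deposited list merges both experiments and gives for each peak its position on mm10 and an irreproducible discovery rate (IDR), an error rate that is low where the rank of a peak is high and repeatable. No read counts or values for single experiments were in the list. The depth per peak is therefore unknown, and the errors below are counting errors over peaks or genes, which share mice and libraries and are not replicate animals.

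EGR1 is a zinc finger transcription factor that neurons produce within minutes of synaptic activity and that binds GC-rich elements near gene starts. Long noncoding RNAs (lncRNAs) are transcribed and spliced much like mRNAs but carry no long reading frame, and some act as host transcripts from whose introns or exons miRNAs and small nucleolar RNAs (snoRNAs) are cut. miRNAs are short RNAs that pair through their seed, bases 2 to 8, with target mRNAs and repress them. The GENCODE start of a miRNA gene is the 5′ end of its hairpin, which can lie far from the start of the primary transcript. The GENCODE classes are lincRNAs, for the most part between coding genes, antisense RNAs, which run against a coding gene, and processed transcripts, a remaining class of noncoding RNAs.

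The miRNA with the lowest IDR in the set, miR-132, shares its seed with miR-212, whose hairpin lies beside it, and both hairpins have an EGR1 peak. The peaks also reached the start sites of host RNAs of the let-7, miR-15/16, miR-29 and miR-9 families. Mature sequences from RefSeq (GRCm38.p6) are given to show these shared seeds, which are in capitals. Of the 9 miRNA genes nearest to a peak of the set, 7 had a mature sequence in the RefSeq table, and Mir124a-1 and Gm47310 had none.
miR-132-3p: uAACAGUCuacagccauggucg
miR-212-3p: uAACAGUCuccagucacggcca
let-7a-5p: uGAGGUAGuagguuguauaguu
let-7f-5p: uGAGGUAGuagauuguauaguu
let-7d-5p: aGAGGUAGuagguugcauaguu
miR-15a-5p: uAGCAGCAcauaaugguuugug
miR-16-5p: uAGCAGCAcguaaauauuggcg
miR-29b-3p: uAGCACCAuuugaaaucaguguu
miR-29c-3p: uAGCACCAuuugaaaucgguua
miR-9-5p: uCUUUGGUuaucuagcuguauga

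The genomic sequence around the peak centres shows which elements EGR1 peaks hold at these start sites. The EGR motif was searched as GCGTGGGCG or GCGGGGGCG, which read CGCCCACGC or CGCCCCCGC on the other strand. The cAMP response element (CRE) was searched as TGACGTCA and the AP-1 site as TGAGTCA or TGACTCA, on both strands. Capitals mark any of these, and sequences are of GRCm38.p6 on the strand of the noncoding RNA. The first 8 lines are the Mir132 and Mir212 peaks and the other peaks with an EGR motif among the 10 lowest IDRs. The last 3 lines are a miRNA peak without these elements, the antisense RNA peak with the lowest IDR, and the peak with the lowest IDR among those with an AP-1 site.
Mir132, plus strand, chr11:75173623-75173823: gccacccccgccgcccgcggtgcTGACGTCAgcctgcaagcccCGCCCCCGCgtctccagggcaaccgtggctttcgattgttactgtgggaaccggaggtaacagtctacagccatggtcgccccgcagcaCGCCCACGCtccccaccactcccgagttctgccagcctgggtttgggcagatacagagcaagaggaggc
Mir212, plus strand, chr11:75173119-75173239: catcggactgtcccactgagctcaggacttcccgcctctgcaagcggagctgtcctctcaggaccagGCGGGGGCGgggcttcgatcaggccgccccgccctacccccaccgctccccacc
2810410L24Rik, minus strand, chr11:120190056-120190176: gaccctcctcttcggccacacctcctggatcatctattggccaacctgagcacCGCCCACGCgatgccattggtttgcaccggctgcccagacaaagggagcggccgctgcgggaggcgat
1700028E10Rik, plus strand, chr5:151368605-151368725: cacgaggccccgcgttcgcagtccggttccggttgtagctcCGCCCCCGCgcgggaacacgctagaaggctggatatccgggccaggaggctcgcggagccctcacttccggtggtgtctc
Gm11205, plus strand, chr11:79704509-79704629: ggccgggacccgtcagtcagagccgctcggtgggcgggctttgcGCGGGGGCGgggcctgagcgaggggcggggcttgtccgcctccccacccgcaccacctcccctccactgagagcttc
6720427I07Rik, minus strand, chr13:48546605-48546725: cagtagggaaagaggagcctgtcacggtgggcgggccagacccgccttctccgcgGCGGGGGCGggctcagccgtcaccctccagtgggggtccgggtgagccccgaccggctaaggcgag
2410006H16Rik, plus strand, chr11:62602977-62603097: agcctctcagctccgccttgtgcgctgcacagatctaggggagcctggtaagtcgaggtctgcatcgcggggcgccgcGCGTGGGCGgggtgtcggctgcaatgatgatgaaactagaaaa
Gm20109, minus strand, chr17:28523100-28523220: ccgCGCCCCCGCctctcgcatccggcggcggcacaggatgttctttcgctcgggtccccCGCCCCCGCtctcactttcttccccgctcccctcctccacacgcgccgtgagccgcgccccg
Mir124a-1, plus strand, chr14:64590232-64590352: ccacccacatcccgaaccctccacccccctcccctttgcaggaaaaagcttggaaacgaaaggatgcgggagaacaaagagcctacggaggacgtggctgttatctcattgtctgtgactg
Gm32569, minus strand, chr1:164899197-164899317: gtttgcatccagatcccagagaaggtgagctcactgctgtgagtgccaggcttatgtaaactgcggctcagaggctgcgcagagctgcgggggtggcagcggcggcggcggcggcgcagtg
Gm26863, plus strand, chr15:38384748-38384868: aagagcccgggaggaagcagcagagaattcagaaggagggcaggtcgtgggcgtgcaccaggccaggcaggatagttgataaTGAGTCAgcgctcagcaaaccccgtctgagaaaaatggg

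The Mir132 window holds 1 CRE and 2 EGR motifs, of which one is GCGGGGGCG and the other GCGTGGGCG, both on the minus strand. These 2 motifs lie on either side of the Mir132 hairpin, at 278 to 286 and 367 to 375 bp from the Mir212 hairpin start, with the hairpin itself at 294 to 359 bp. The peaks of Mir212, 1700028E10Rik, Gm11205, 6720427I07Rik and Gm20109 carry the GCGGGGGCG form, Gm20109 with 2 copies, and those of 2810410L24Rik and 2410006H16Rik the GCGTGGGCG form. In the Mir124a-1 and Gm32569 windows none of these letters were found, and the Gm26863 window holds an AP-1 site but no EGR motif.

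The miR-212/132 locus on chromosome 11 held the lowest IDR of all 175 peaks. miR-132 is a neuronal miRNA known to rise with synaptic activity. Its peak, from 75173568 to 75173878, had an IDR of 7.54e-09 and its centre lay 41 bp downstream of the Mir132 hairpin start. The second peak, from 75173047 to 75173310, lay 209 bp upstream of the Mir212 hairpin start with an IDR of 2.04e-05. The 2 peak centres were 544 bp apart, and both peaks held a CRE, as did 3 of the 175 peaks in all. The CRE of the Mir212 peak lies outside the window printed above. The annotated RNA that spans both hairpins, the processed transcript 1700016P03Rik, starts 828 bp upstream of Mir212. The nearest protein-coding TSS to the Mir132 peak, that of Hic1, was 4204 bp away.

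The Mir124a-1 locus on chromosome 14 held 3 peaks of the set. miR-124 is a miRNA abundant in neurons, and Mir124a-1hg is its annotated host lincRNA. A peak centre lay 78 bp upstream of one Mir124a-1hg start (IDR 0.004) and another lay 232 bp upstream of a second start (IDR 0.00285). The third lay 365 bp upstream of the Mir124a-1 hairpin (IDR 0.000329). None of the 3 held an EGR motif. A further EGR1 peak, 1228 to 1491 bp upstream of the host RNA and outside the set, had an IDR of 0.00139.

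**Figure D1:**
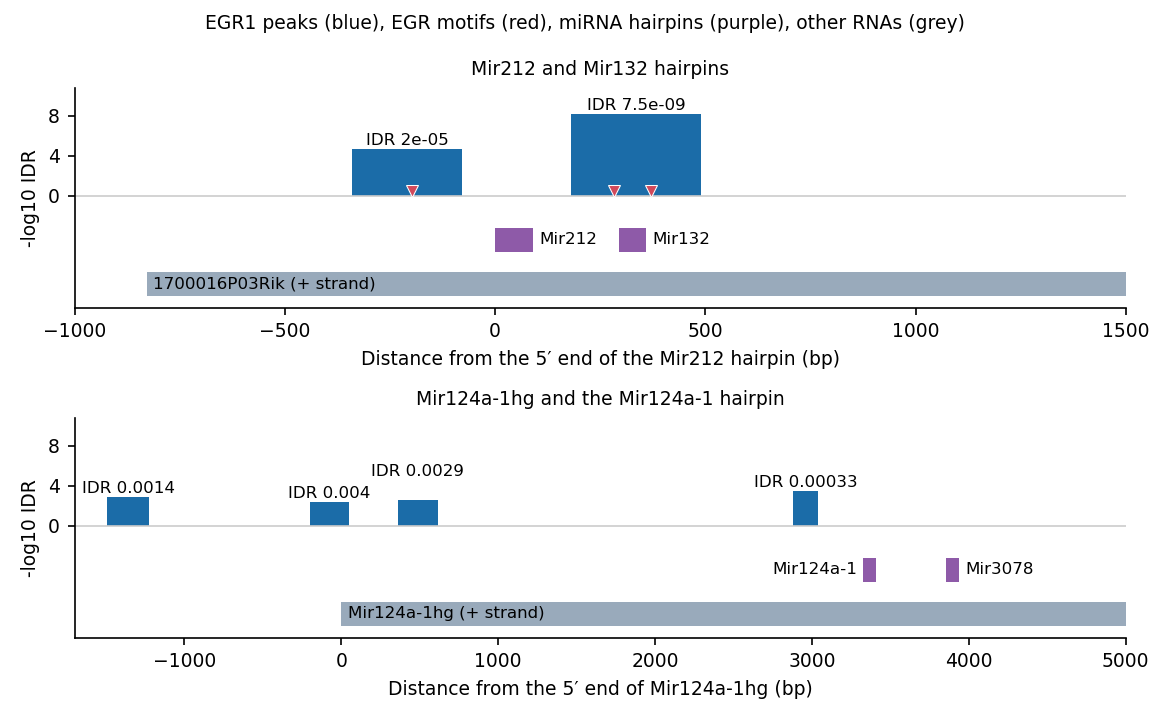
Maps of the miR-212/132 locus (top, distance in bp from the Mir212 hairpin start) and the Mir124a-1 locus (bottom, distance in bp from the Mir124a-1hg start), with EGR1 peaks as blue bars whose height is -log10 of the IDR, EGR motifs in peaks as red triangles, miRNA hairpins in purple and other noncoding RNAs in grey. The Mir132 peak, with an IDR of 7.54e-09, covers its hairpin with a motif on each side, while the 4 peaks at Mir124a-1hg have IDRs of 0.000329 to 0.004 and no motif.

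The 6 miRNA genes with a peak outside these loci had IDRs from 1.81e-05 to 0.0175. The peak 450 bp upstream of Mir203, a miRNA known from skin epithelium, had an IDR of 0.000394 and held GCGGGGGCG. The peak 423 bp from Mir1905 (IDR 1.81e-05) lay in a coding exon of Mex3a, and that 428 bp from Mir5046 (IDR 0.00382), with an EGR motif, in a coding exon of Rps6ka4. Mir8106, Mir7685 and Gm47310 had peaks 97, 31 and 173 bp upstream of the hairpin, with IDRs of 0.000728, 0.00151 and 0.0175. In all, 9 of 1733 miRNA genes with a hairpin start more than 2 kb from coding TSSs had a peak of the set within 500 bp, or 0.519%. Of a list of 37 neuronal miRNA symbols, chosen with earlier results of these data known, 30 were in this class. Of these, 3 (Mir132, Mir212 and Mir124a-1) had a peak, a count that was not tested and is no independent result. The other 27, which include Mir9-1, Mir128-1, Mir134, Mir137 and Mir138-1, had none. Among these 27, peaks lay 608 bp from Mir125b-1, 945 bp from Mir124a-3, 1138 bp from Mir138-2 and 1151 bp from Mir9-2, outside the limit.

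Host RNAs of miRNAs made up a further group, with the peak at the start of the host and not at the hairpin. Downstream of the bound start site and inside the gene, 10 noncoding genes of the set carried 15 annotated miRNA genes on the same strand. The lincRNA 6720427I07Rik on chromosome 13 had a peak 165 bp upstream of its start (IDR 5.33e-08), and Mirlet7a-1, Mirlet7f-1 and Mirlet7d lie 8228, 8583 and 10386 bp downstream of it. let-7 miRNAs time differentiation in animals. Dleu2, the host of the miR-15a/16-1 pair that is lost in human chronic lymphocytic leukaemia, had a peak with an EGR motif 219 bp downstream of a start site (IDR 4.65e-06), with Mir15a 50192 bp further. A second peak with a lower IDR of 4.38e-08 lay 51 bp upstream of the lincRNA Gm27017 and also within 500 bp of another Dleu2 start.

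A330023F24Rik, host of Mir29b-2 and Mir29c, had a peak 8 bp upstream of its start (IDR 1.88e-05). C130071C03Rik, a lincRNA that carries Mir9-2 17433 bp downstream and whose nearest coding TSS is that of the neuronal factor Mef2c, 68365 bp away, had a peak 128 bp upstream (IDR 8.94e-05). Gm20732 with Mir30d (IDR 0.000752) and Gm3294 with Mir129-1 (2 peaks, IDR 3.94e-05 and 0.00959) were bound as well. The remaining 4 of the 10 were Mir124a-1hg, 3110039I08Rik with Mir125b-1, and Zswim6 and 9330111N05Rik, each with a predicted miRNA. In 3 genes a miRNA lay upstream of the bound start. The peaks of Gm3764 (IDR 1.48e-06) and Mir9-3hg (IDR 0.0171) lay at alternative starts 10335 and 10171 bp downstream of Mir9-1 and Mir9-3, and that of 3110039I08Rik (IDR 0.0144) lay 49883 bp downstream of Mir100.

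snoRNA host genes, whose introns release guide RNAs for rRNA modification, were bound at 6 genes with 12 snoRNAs downstream of the start. 2410006H16Rik, which carries Snord49b, Snord49a and Snord65, had a peak 160 bp downstream of its start with an IDR of 5.34e-08. Snhg5, with Snord50a and Snord50b, had a peak 83 bp upstream (IDR 3.31e-07). Snhg8 (IDR 1.6e-05), 1110038B12Rik (IDR 0.000548), Dancr (IDR 0.0062) and 1810032O08Rik (IDR 0.011) completed the group. Of the peaks at these 6 genes, that of 2410006H16Rik held an EGR motif.

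Among 7960 lncRNA genes with a start more than 2 kb from coding TSSs, 164 had a peak of the set, or 2.06%. Of the 97 that carry a miRNA downstream of their start, 10 were bound (10.3%, 95% Wilson interval 5.70% to 17.95%), against 154 of the 7863 without one (1.96%, 1.67% to 2.29%). Of the 57 that carry a snoRNA, 6 were bound (10.5%, 4.91% to 21.1%). The host genes also differed in other ways. Their start was CpG-rich, as defined below, in 19.6% of miRNA hosts, against 3.65% of the genes without a miRNA. For snoRNA hosts it was 29.8%, against 3.66% of the genes without a snoRNA. The miRNA hosts had a median length of 22711 bp against 6487 bp. Within the CpG-rich genes, 9 of 19 miRNA hosts and 57 of 287 others were bound, and 6 of 17 snoRNA hosts and 60 of 289 others. These counts were chosen after the values were seen and were not tested.

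Named lncRNAs were followed by lists, which overlap in part and were chosen with earlier results of these data known. Their counts are read beside the 2.06% of all eligible lncRNA genes with a peak of the set. At that share, 0 bound genes in a list of 6 or 13 is no result about the list. Shares above it were not tested and are no independent result, given how the lists were chosen. Of 20 lncRNAs with an eligible start on the list named neural lncRNAs, 4 had a peak of the set (Mir124a-1hg, Mir9-3hg, C130071C03Rik and Lncpint). Lncpint, a lincRNA induced by p53, had 2 peaks, 310 bp upstream of one start (IDR 1.47e-06) and 18 bp downstream of another (IDR 0.00369). The other 16, among them Miat, Rmst, Sox2ot, Dlx6os1, Pantr1 and Meg3, had none, though a peak lay 536 bp from a Pantr1 start and 935 bp from a Miat start. Of 13 imprinted or X-inactivation RNAs, such as H19, Airn, Kcnq1ot1, Xist and Tsix, 0 had a peak of the set. Of 6 nuclear lncRNAs 0 had one, and the nearest peaks to Malat1 and Neat1 lay 878 and 1674 bp from a start. Tug1 and the snoRNA host Gas5 had an EGR1 peak 158 and 1 bp from a start, but a coding TSS lay within 2 kb of those peaks, so they are not in the set. Of 11 snoRNA host genes on a list of names, 3 (Dancr, Snhg5 and Snhg8) were bound, and of 9 RNAs named as miRNA hosts 2 (Mir124a-1hg and Mir9-3hg).

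The 175 peaks were spread over 20 chromosomes and 170 nearest genes. By nearest start they fell on 100 lincRNA, 37 antisense, 29 processed transcript and 9 miRNA starts, with 0 on the 282 sense-intronic and the 10 bidirectional-promoter genes that were eligible, which allows shares of up to 1.34% and 27.8% (95% Wilson intervals). As a share of eligible genes, 96 of 5408 lincRNAs (1.78%), 39 of 1760 antisense RNAs (2.22%) and 29 of 500 processed transcripts (5.80%, 95% Wilson interval 4.07% to 8.21%) were bound, counting every gene with a start within 500 bp of a peak and not only the nearest. The median IDR was 1.88e-05 at processed transcripts, 0.000394 at miRNAs, 0.00045 at lincRNAs and 0.004 at antisense RNAs. Peaks lay upstream of the start in 102 cases, downstream in 72 and on it in 1, at a median distance of 159 bp, and 62 were within 100 bp. Some of these genes are coding in RefSeq. Curated RefSeq mRNA starts lay within 500 bp of 4 peaks, at Zswim6, Tmem250-ps, Gm32856 and Trerf1, and a start of any RefSeq mRNA model within 2 kb of 11. RefSeq lncRNA starts lay within 500 bp of 78.

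**Figure D2:**
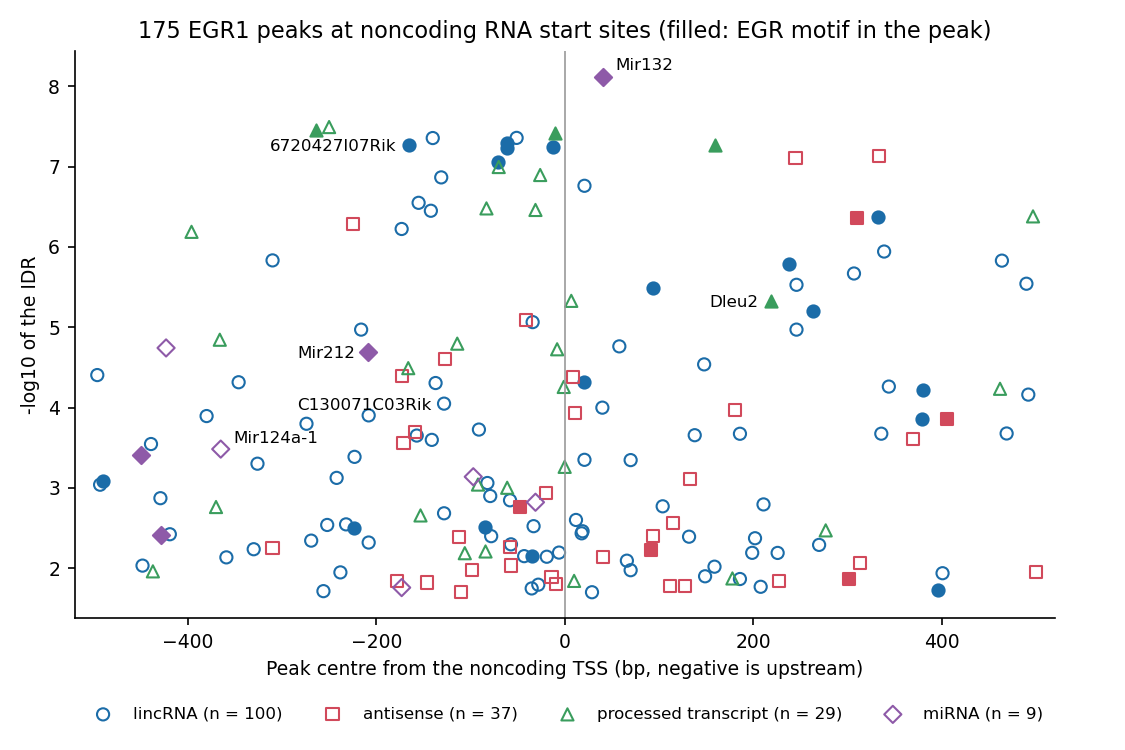
Distance in bp of each of the 175 peak centres from its nearest noncoding TSS (x axis, negative is upstream) against -log10 of the IDR (y axis), by class of RNA, with filled symbols for peaks that hold an EGR motif. The Mir132 peak lies highest, and the filled symbols are more frequent in the upper part of the plot, with 12 among the 35 peaks of lowest IDR and 2 among the 35 of highest.

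The distance to coding starts was set at more than 2 kb by the choice of peaks and is given as a description. The nearest protein-coding TSS was a median of 29540 bp away (2054 to 393269 bp), and it was more than 10000 bp away for 131 peaks and more than 100000 bp away for 31. Outside coding genes lay 142 peaks, with 26 in introns, 5 in coding exons and 2 in untranslated exons of coding genes. Of the 31 peaks within coding genes of a given strand, 27 lay at a noncoding RNA on the strand opposite to the coding gene. Antisense RNAs, a class that runs against a coding gene, made up 20 of the 33 peaks inside coding genes. The classes used therefore set this split in part. Another EGR1 peak lay within 1000 bp of 15 peaks and within 10000 bp of 51. Besides Lncpint, Mir124a-1hg and Gm3294, 2410080I02Rik (IDR 0.00406 and 0.0193) and AC112949.1 (IDR 0.000914 and 0.019) had 2 peaks each. 2410080I02Rik starts near Klf9, a zinc finger gene induced by glucocorticoids, whose TSS lay 6194 and 6582 bp from its peaks.

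Peaks at noncoding starts inside or near coding genes of neurons are named here by their known roles, chosen after their values were seen. 4930447F24Rik starts in an intron of Bsn, which encodes the presynaptic scaffold Bassoon, with a peak 462 bp downstream of the start (IDR 5.84e-05). Gm45159 starts in an intron of Dlg2, which encodes the postsynaptic scaffold PSD-93, with a peak 380 bp upstream (IDR 0.000128) and 204014 bp from the nearest GENCODE coding TSS, although a predicted RefSeq Dlg2 mRNA starts 338 bp from it. 5031415H12Rik lies antisense to Dlgap1, the gene of another postsynaptic scaffold, with an IDR of 0.0087. Gm30177, in an intron of the activity-induced neuritin gene Nrn1, had an IDR of 0.004, and Gm47310, in an intron of the tau gene Mapt, one of 0.0175. Between genes, Gm16582 had a peak with an IDR of 6.48e-07, 4435 bp from the TSS of Cdk5r2, which encodes an activator of the neuronal kinase CDK5. Gm11766 had a peak (IDR 0.000125) 4460 bp from that of the dendritic spine gene Baiap2 and 1613 bp from the start of a predicted RefSeq Baiap2 mRNA, and 1700113A16Rik one (IDR 0.0196) 9643 bp from that of the neuronal transcription factor gene Mef2d. None of these 8 peaks held an exact EGR motif, and 2 of them, at Gm30177 and 1700113A16Rik, were CpG-rich. Whether a peak bears on the noncoding RNA or on the coding gene cannot be read from its position.

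The 10 peaks of lowest IDR ranged from 7.54e-09 to 5.69e-08. After Mir132 came Zswim6 (3.21e-08, 250 bp upstream, also 250 bp from the RefSeq coding start of Zswim6), 2810410L24Rik (3.48e-08), 1700028E10Rik (3.82e-08), Gm27017 (4.38e-08) and 1700041G16Rik (4.4e-08). Gm11205 (5.08e-08), 6720427I07Rik (5.33e-08), 2410006H16Rik (5.34e-08) and Gm20109 (5.69e-08) followed. All 10 were CpG-rich and 7 held an EGR motif. Gm20109 lies 5633 bp from the nearest coding TSS, that of Fkbp5, which encodes a co-chaperone of the glucocorticoid receptor, and 1700041G16Rik 2513 bp from that of the adaptor gene Ap3m2 and 843 bp from the start of a predicted RefSeq mRNA of that gene. At antisense RNAs the lowest IDRs were those of Gm32569 (7.32e-08) and Chn1os3 (7.72e-08), neither CpG-rich nor with a motif, and at lincRNAs that of Gm27017. At the distance limit, Gm3294, Gm11638 and Gm47272 lay just inside at 496, 497 and 500 bp (IDR 3.94e-05, 4.16e-07 and 0.0113). Gm26755, Gm48843 and Gm30504 lay just outside at 512, 513 and 530 bp (IDR 0.00216, 0.00583 and 3.43e-07).

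Of all 11938 EGR1 peaks on assembled chromosomes, 16.6% held the EGR motif. It was found in 30 of the 175 peaks (17.1%, 95% Wilson interval 12.3% to 23.4%), near that share of the whole list. It was present in 6.87% of 4340 distal peaks, which lay on assembled chromosomes more than 2 kb from every TSS of any gene, and the difference of 10.3 percentage points (5.35 to 16.6) passed Fisher's exact test (2-sided, adjusted p = 1.49e-05). That difference is over all peaks, and the shares within CpG classes are given below. The motif was present in 23.3% of 5829 peaks within 500 bp of a coding TSS. This difference of -6.14 points (-11.1 to 0.227) did not pass (Fisher's exact test, adjusted p = 0.0817), which does not show that the classes are alike. It passed under 5 alternatives, with differences of -6.19 to -10.6 points. As a general level, 3.47% of 32851 RefSeq promoters of 300 bases held the motif. The GCGGGGGCG form was in 21 peaks and GCGTGGGCG in 10, with both in the Mir132 peak. With GCGTGGGCG alone the share was 5.71%, the difference from coding promoters turned to 0.533 points, and that from distal peaks, 2.76 points, no longer passed (Fisher's exact test, adjusted p = 0.0891). The motif centre was within 25 bp of the peak centre in 20 of the 30 peaks, at a median of 15 bp.

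Peaks at noncoding starts lay between coding promoter and distal peaks in CpG content. A peak was called CpG-rich where the 500 bp around its centre had an observed to expected CpG ratio of 0.6 or more and a GC content of 50% or more. This held for 71 of 175 peaks at noncoding starts (40.6%, 33.6% to 48.0%), for 81.7% of coding promoter peaks and for 6.34% of distal peaks. Both differences passed Fisher's exact test (adjusted p = 9.52e-32 and 3.26e-35). Of all 11938 peaks on assembled chromosomes, 47.9% were CpG-rich. The CpG ratio had a median of 0.515 at noncoding starts, 0.784 at coding promoters and 0.263 in distal peaks. By class of RNA, 19 of 29 peaks at processed transcripts, 6 of 9 at miRNAs, 36 of 100 at lincRNAs and 10 of 37 at antisense RNAs were CpG-rich.

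Within CpG-rich peaks the motif was in 26.8% of 71 at noncoding starts and in 24.8% of 4762 at coding promoters, a difference of 1.98 points (-7.01 to 13.3, Fisher's exact test, adjusted p = 0.679). Within CpG-poor peaks it was in 10.6% of 104 and 16.6% of 1067, a difference of -6.01 points (-11.2 to 1.66, Fisher's exact test, adjusted p = 0.136). Neither difference passed, and their intervals span 0. In distal peaks the motif was in 29.45% of 275 CpG-rich peaks (24.4% to 35.1%) and in 5.34% of 4065 CpG-poor peaks (4.69% to 6.07%). Among CpG-rich peaks the share at noncoding starts was thus not above that in distal peaks, and among CpG-poor peaks it was higher. These differences from distal peaks within CpG classes were not tested.

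**Figure D3:**
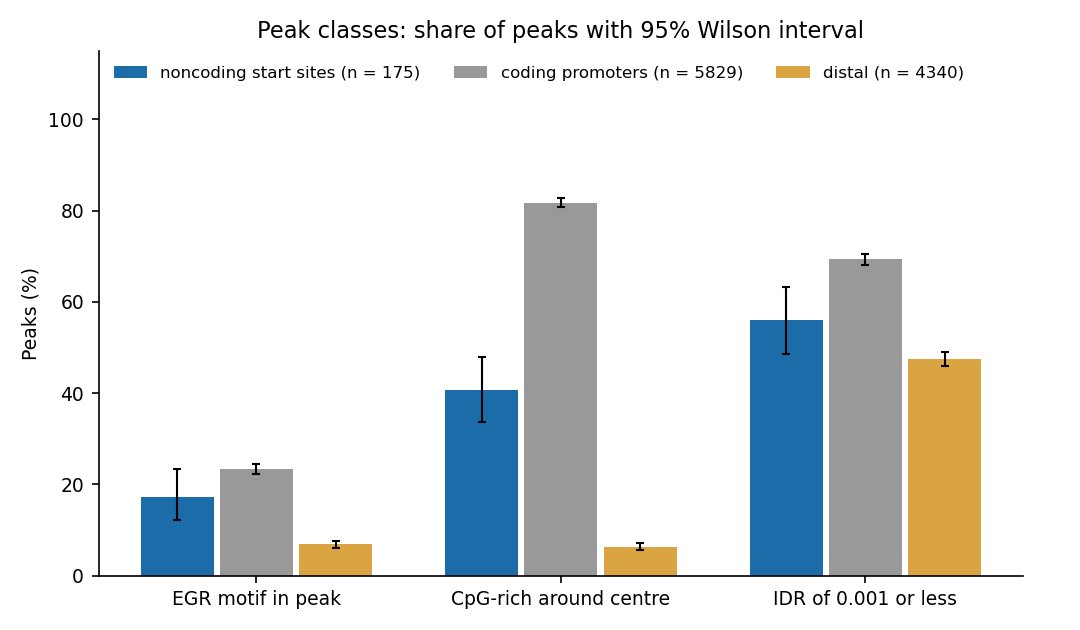
Share of peaks (%, bars, with 95% Wilson intervals) that hold an EGR motif, are CpG-rich or have an IDR of 0.001 or less, for the 175 peaks at noncoding start sites, 5829 coding promoter peaks and 4340 distal peaks. The shares at noncoding start sites lie between those of the other classes in all 3 measures, with 17.1%, 40.6% and 56.0%. The motif difference from coding promoters did not pass Fisher's exact test. The difference in low IDRs from distal peaks did not pass under some alternatives.

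Low IDRs were less frequent at noncoding starts than at coding promoters. An IDR of 0.001 or less was reached by 98 of 175 peaks (56.0%, 48.6% to 63.1%), by 69.3% of coding promoter peaks and by 47.5% of distal peaks. Of all 12014 peaks, 59.6% reached it. The difference from coding promoters was -13.3 points (-20.8 to -6.10, Fisher's exact test, adjusted p = 3.76e-04) and that from distal peaks 8.49 points (0.936 to 15.8, adjusted p = 0.0407). The latter did not pass when only lincRNA and antisense starts were used (4.66 points), when the distance was 250 bp (5.33 points), when coding TSSs were kept 5 kb away (7.03 points) or among peaks with an IDR of 0.005 or less (9.24 points). Among these peaks the difference from coding promoters did not pass either (-5.01 points, Fisher's exact test, adjusted p = 0.199). The median IDR was 0.000451 at noncoding starts, 5.47e-05 at coding promoters and 0.00125 in distal peaks.

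When the 175 peaks were ordered by IDR and divided into 5 groups of 35, the EGR motif was in 12 peaks of the lowest-IDR group, then in 7, 3, 6 and 2. CpG-rich peaks numbered 20, 15, 11, 14 and 11. The first and last groups differ in the motif as a description only, with Wilson intervals of 20.8% to 50.9% and 1.58% to 18.6%. The group of lowest IDR also had narrower peaks, with a median width of 172 bp against 250 to 259 bp in the others.

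**Figure D4:**
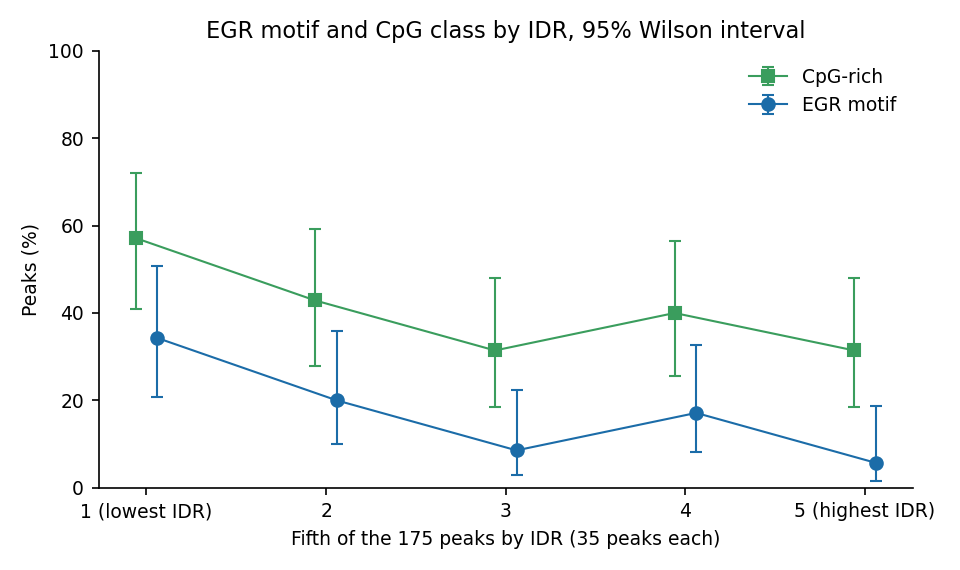
Share of peaks (%, points with 95% Wilson intervals) that hold an EGR motif (blue) or are CpG-rich (green) in 5 groups of 35 peaks ordered by IDR, lowest first. The motif falls from 34.3% in the first group to 5.71% in the last, with 17.1% in the fourth, and CpG-rich peaks from 57.1% to 31.4%.

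Other elements were searched after the data were seen. The AP-1 site, bound by FOS and JUN proteins, was in 13 of 175 peaks (7.43%, 4.39% to 12.3%), against 1.99% of coding promoter peaks (Fisher's exact test, adjusted p = 2.31e-04, over 8 tests) and 8.13% of distal peaks (difference -0.705 points, -3.86 to 4.22, adjusted p = 1). It was in 5.20% of all RefSeq promoters. Of these 13 peaks, 10 were CpG-poor and 3 also held an EGR motif. They include the starts of Gm26863 (IDR 5.97e-07) and Mir7685. The GC box GGGCGG, which overlaps the EGR forms in part, was in 56.0% of peaks at noncoding starts, 77.5% at coding promoters and 28.3% in distal peaks, and both differences passed (Fisher's exact test, adjusted p = 2.97e-09 and 5.44e-13). Within CpG-rich peaks the GC box was in 78.9%, 81.6% and 70.9% of these classes in turn. Within CpG-poor peaks it was in 40.4%, 59.4% and 25.4%. The shares within CpG classes were not tested. The general level of the GC box was 35.7% of RefSeq promoters. The CRE was in 3 peaks (Mir132, Mir212 and Tmem250-ps; 1.71%, 0.585% to 4.92%), against 2.196% at coding promoters (adjusted p = 1) and 0.323% in distal peaks (adjusted p = 0.0522, Fisher's exact test), and in 1.79% of RefSeq promoters. The YY1 element AAGATGGCG was in 1 peak.

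A much smaller share of lncRNA genes than of coding genes was bound. Of 21938 protein-coding genes, 25.8% had an EGR1 peak within 500 bp of a TSS. Of the 7960 lncRNA genes, 2.06% had a peak of the set, with an odds ratio of 0.0604 and a Fisher's exact test p too small to be represented by the software. Peaks within 2 kb of a coding TSS do not count for the lncRNA genes here. With any EGR1 peak at any start of the same genes counted, as for coding genes, 219 of 7960 (2.75%, 2.41% to 3.13%) were bound. Coding genes have more annotated starts, with a median of 3 against 1, and more of them are CpG-rich. The shares were therefore also compared within classes, a choice made after the data were seen. The CpG class of a bound gene was that of the start nearest the peak, and that of an unbound gene was read at its own 5′ end. Among genes with a CpG-rich start, 66 of 306 lncRNA genes (21.6%, 17.3% to 26.5%) and 45.1% of 10848 coding genes were bound. Among CpG-poor starts the shares were 1.28% of 7654 and 6.94% of 11090. Among CpG-rich genes with only 1 annotated start they were 31 of 171 (18.1%) and 29.1% of 1311, a difference of -11.01 points (-16.7 to -4.13). Each of these differences passed Fisher's exact test (adjusted p = 4.26e-17, 3.09e-85 and 0.00203). The genes with 1 start have the same start in either case. With every gene classed at its own 5′ end and any peak at any start counted, the shares at CpG-rich starts were 26.1% of 398 lncRNA and 43.0% of 10441 coding genes (Fisher's exact test, adjusted p = 1.14e-11). Whether the lncRNAs were transcribed in this tissue was not measured here, and its part in these differences was not tested.

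Bound and unbound lncRNA genes differed in sequence at the start. CpG-rich starts made up 66 of 164 bound (40.2%) and 3.08% of 7796 unbound genes (Fisher's exact test, adjusted p = 5.12e-51). With every gene classed at its own 5′ end the share among bound genes was 39.6%. An EGR motif lay within 250 bp of the start in 18 bound genes (10.98%) and 0.282% of unbound ones (adjusted p = 3.2e-20, Fisher's exact test). Within CpG-rich starts the motif was in 14 of 66 bound (21.2%, 13.1% to 32.5%) and 9 of 240 unbound genes (3.75%, 1.99% to 6.97%), a difference of 17.5 points (8.71 to 28.9, Fisher's exact test, adjusted p = 3.88e-05). Read the other way, 14 of the 23 CpG-rich lncRNA starts with a motif were bound (60.9%, 40.8% to 77.8%), against 52 of 283 without (18.4%, 14.3% to 23.3%). With GCGTGGGCG alone the difference within CpG-rich starts was 3.03 points and did not pass (Fisher's exact test, adjusted p = 0.0689).

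**Figure D5:**
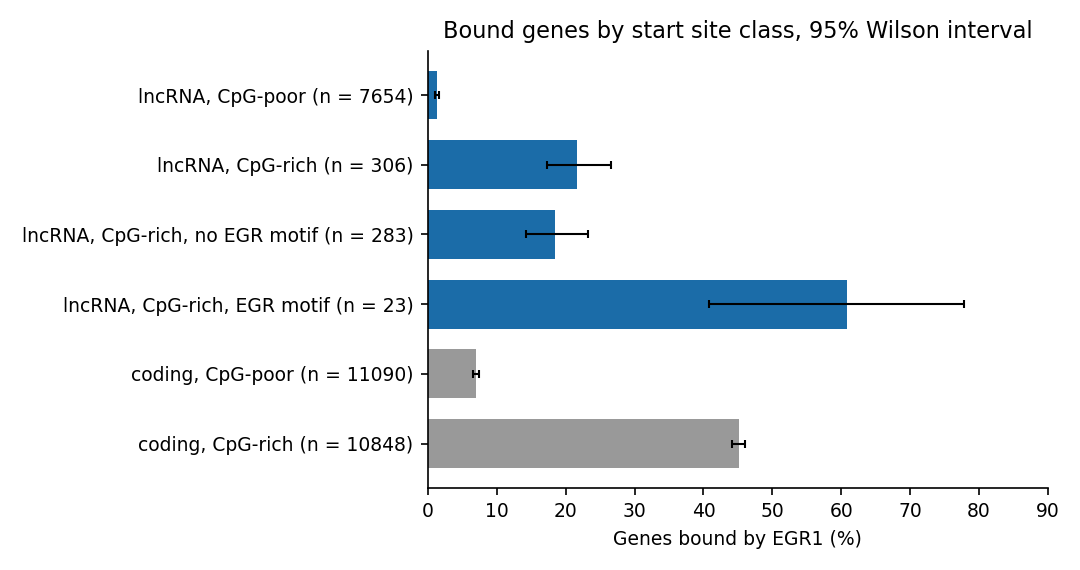
Share of genes (%, bars, with 95% Wilson intervals) that are bound, for lncRNA genes with a start more than 2 kb from coding TSSs (blue, bound by a peak of the set) and protein-coding genes (grey, bound by any EGR1 peak within 500 bp of a TSS), by CpG class and, for CpG-rich lncRNA genes, by the presence of an EGR motif within 250 bp of the start. CpG-rich lncRNA starts with a motif reach 60.9% of 23 genes, against 18.4% of 283 without and 1.28% of CpG-poor starts.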

How the data were processed

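EGR1 ChIP-seq of frontal cortex was analysed from the deposited list that merges both replicates. Per the labels and the methods of the study, the authors trimmed 100-bp paired-end reads with cutadapt, placed them on mm10 by Bowtie, used SPP as peak caller and kept peaks that passed an IDR of 2%. The submitters' processing notes name Bowtie2 2.2.9 and bedtools 2.26.0. The deposited IDR is read as a measure of how repeatable a peak was between the replicates, and not as a p-value for binding. The list holds no counts, the input DNA has no processed values here, and depth is unknown.

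Starts were read as BED positions and printed from 1. Start sites are the 5′ ends of all GENCODE M21 transcripts, and sequence and mRNA starts come from RefSeq GRCm38.p6. Shares of peaks or genes were compared by Fisher's exact test, 2-sided, with Benjamini-Hochberg adjustment over 12 tests (8 for other motifs and 4 within gene classes). Intervals are Wilson intervals for shares and Newcombe intervals for differences, at 95%. The peaks named include the 10 of lowest IDR, those at listed genes, at miRNA genes and at genes with 2 or more peaks. They also include the lowest of each class and those at the distance limit. Others are named for a miRNA or snoRNA inside the gene, an AP-1 site or CRE, or a RefSeq mRNA start. Those inside or near coding genes of neurons were chosen after their values were seen. The set and the gene lists were chosen with earlier results of these data known. Alternatives changed the start sites, distances, IDR, classes, motif and CpG limits. The software was Python 3.11.15 with scipy 1.17.1, pandas 2.3.3, numpy 2.4.6, matplotlib 3.10.9 and numba 0.67.0. The motif search, the nearest distance, the choice of peaks and Fisher's exact test were tried on simulated data, and the other steps were not.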

Additional observations from a re-analysis of the deposited data

How the results depend on the processing

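The number of peaks at noncoding starts ran from 123 (distance of 250 bp) to 237 (1000 bp) around the 175 reported. Most differences between classes kept their direction and their side of the threshold under the alternatives tried. The lower motif share than at coding promoters passed the test with transcripts of annotation level 1 or 2 (-7.65 percentage points), a distance of 250 bp (-8.10) or 1000 bp (-6.19), coding TSSs kept 5 kb away (-7.70) or 1 mismatch allowed (-10.6), and turned to 0.533 with GCGTGGGCG alone. Within CpG-rich peaks it turned from 1.98 to -1.73 with level 1 or 2, -1.83 with 5 kb and -1.38 with lincRNA and antisense starts only. Within CpG-poor peaks it passed at 250 bp (-10.1) and turned to 0.778 with GCGTGGGCG alone. The share of peaks with the motif was 5.71% with GCGTGGGCG alone and 73.7% with 1 mismatch. With GCGTGGGCG alone, the motif differences from distal peaks (2.76) and between bound and unbound CpG-rich lncRNA starts (3.03) did not pass. The larger share of low IDRs than in distal peaks did not pass at 250 bp (5.33), with 5 kb (7.03), with lincRNA and antisense starts only (4.66) or with peaks of IDR 0.005 or less (9.24), and the smaller share than at coding promoters did not pass with the last (-5.01). Leaving out peaks with a RefSeq mRNA start within 2 kb, chosen after seeing the data, left 164 peaks and changed no call. Counting any peak at any start of the lncRNA genes, or classing every gene at its own 5′ end, also chosen after seeing the data, changed no call on bound genes. The causes of these changes were not tested. No paired analysis was possible because the list merges both replicates, and for the same reason no replicate could be left out.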
